A study of Homo sapiens with 12 samples.

Results

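The 10 genes described here encode hormones that cells release into the blood: EPO and THPO, which act on blood cell precursors; NPPB, ADM and NTS, which encode vasoactive and gut peptides; FGF19, FGF21, GDF15 and INHBE, whose products act on metabolism; and STC2, which encodes a secreted glycoprotein. They were taken by gene symbol from the 60666 genes listed in each library, and each symbol matched a single gene identifier. The RNA came from Huh7, an established human hepatocellular carcinoma line, so that all groups are the same cell line. Cells were grown with 25 µM Molidustat, a drug given against the anemia of kidney disease, or with DMSO, its solvent, and were harvested after 24 h or 48 h. The 4 groups are called DMSO 24 h, Molidustat 24 h, DMSO 48 h and Molidustat 48 h, and each has 3 libraries. The methods call the libraries of a group biological replicates, whereas the design text speaks of RNA extracted in triplicate. Whether they came from separate cultures was not settled by these sources, so the p-values may measure technical spread in part. Only RNA was measured in these data, and no secreted protein.

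Molidustat inhibits the prolyl hydroxylases EGLN1, EGLN2 and EGLN3. With oxygen, these enzymes mark the HIF-α proteins for VHL, which sends them for degradation; when they are blocked, HIF-1α (HIF1A) and HIF-2α (EPAS1) pair with ARNT and bind DNA at hypoxia response elements, whose core reads ACGTG or GCGTG. EPO is the best known target of this pathway, and the liver, which makes the hormone before birth, keeps some capacity to make it later. FGF21, GDF15, INHBE and STC2 are better known as genes that cells switch on through the integrated stress response, in which ATF4 and its partners bind elements of the form TGATGNAA.

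Depth ran from 1499273 to 9179389 counts on genes per library, and 14274 genes passed the filter on low counts. One library stood apart. In DMSO 48 h replicate 2, 50.4% of the listed reads fell on no annotated gene, against 17.1 to 25.6% in the other libraries, and its TMM factor (the library scaling of edgeR) was 0.629. It was also the shallowest, so that 3 counts in it were worth 3.19 CPM (counts as a share of the TMM-scaled library), against 0.310 to 1.29 CPM elsewhere. Of the 10 hormone genes, NTS was the only one with more than 8 counts in it. Values at 48 h are therefore also given without this library where it moves them. Reads in 3′ libraries such as these come from the end of each transcript, and it was not stated whether molecular identifiers were counted, so counting limits cover counting error only.

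The DNA near these genes was searched for the 2 element types, and the stretches below show 1 match for each of the 4 genes in which one was found, taken for EPO past its 3′ end and for the others in the promoter. EPO is known for an enhancer just past its 3′ end. In GRCh38, the first ACGTG past the annotated end of EPO lay 120 bases downstream, at chr7:100723810-100723834 on the plus strand, the strand of the gene. Capitals mark the matched letters.
EPO 3′ flank: gctgggccctACGTGctgtctcaca
ADM promoter: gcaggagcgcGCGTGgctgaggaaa
STC2 promoter: gcgtttgcgtGCGTGtgtatgagtg
FGF21 promoter: tcctcctcccTGATGCAAtcctggtgtt
The ADM stretch is chr11:10304962-10304986 (plus strand, 101 bases before the start of the gene), that of STC2 is chr5:173328635-173328659 (plus strand, opposite to the gene, 235 bases before its RefSeq start, where 2 further GCGTG matches overlap it), and that of FGF21 is chr19:48755460-48755487 (minus strand, opposite to the gene, 54 bases before its start). Promoter windows of 300 bases, from 250 before to 50 after the start, were taken from RefSeq on GRCh38 and held an entry for 7 of the 10 genes. With both strands searched, 3 of these 7 (EPO, ADM and STC2) held GCGTG, which 36.5% of all 35116 promoter windows held, and none of the 7 held ACGTG, which 21.4% of all held. In EPO the GCGTG lay 15 bases after the start. TGATGNAA was found in 1 of the 7, against 3.62% of all windows. Of 20046 windows of 300 bases past the end of protein-coding genes, 14.0% held ACGTG. Such short matches are common, and they are descriptions of the DNA, not binding sites measured here.

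EPO (ENSG00000130427; GRCh38 chromosome 7, 100720468 to 100723700, plus strand) encodes erythropoietin, the hormone that drives red cell formation. It had no count in any of the 3 DMSO 24 h libraries, which together allow a level of up to 0.254 CPM. In the Molidustat 24 h libraries it stood at 13.6, 41.4 and 16.3 CPM (38, 341 and 85 counts). All 3 treated libraries were thus well above a control group without a single read. Their mean of 23.8 ± 15.3 CPM (SD, n = 3) was at least 93.5-fold higher than the limit that 3 counts over the DMSO group set, and edgeR called the change (adjusted p = 0.000977). At 48 h, the DMSO libraries held 2.58, 8.52 and 5.79 CPM of EPO, and the Molidustat libraries 52.8, 69.9 and 91.9 CPM. The groups were again separate, by 3.81 ± 0.58 log2 units (standard error; 14.1-fold; edgeR adjusted p = 0.0121). Without DMSO 48 h replicate 2, which held the highest of the DMSO 48 h values on only 8 counts, the log2 fold change of EPO was 4.06 (adjusted p = 0.00353). The 48 h call of EPO was lost without Molidustat 48 h replicate 2 or without replicate 3 (adjusted p = 0.0554 and 0.0711), and with the 2 groups fitted alone (adjusted p = 0.0644), whereas the 24 h call held in each of the 12 fits that left out 1 library. In RNA from whole cultures, more EPO per cell and more cells that make EPO cannot be told apart.

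Ordered by level, EPO was lowest in DMSO 24 h, then DMSO 48 h at 5.63 ± 2.97 CPM, then Molidustat 24 h, and highest in Molidustat 48 h at 71.5 ± 19.6 CPM (SD, n = 3 each). No library of one group overlapped with those of the next. The step from 24 h to 48 h in DMSO alone, from 0 of 3 to 3 of 3 libraries with reads, was at least 22.1-fold, but edgeR did not call it (adjusted p = 0.103), whereas DESeq2 did (adjusted p = 0.00136). Of the 12 fits that left out 1 library, edgeR called this step in 1, without DMSO 48 h replicate 1 (adjusted p = 0.0408). Without DMSO 48 h replicate 2 it was not called (edgeR adjusted p = 0.108). The DMSO 48 h mean was then 4.18 CPM, and the 22.1-fold bound includes that library. In Molidustat, EPO stood 1.57 ± 0.50 log2 units higher at 48 h than at 24 h (standard error), which was not called (unadjusted p = 0.00779, adjusted p = 0.9998 by edgeR). The middle pair, DMSO 48 h and Molidustat 24 h, differs in both time and treatment and was not tested.

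THPO (ENSG00000090534; chromosome 3, 184371935 to 184381968, minus strand) encodes thrombopoietin, the liver hormone that drives platelet formation. It was low throughout, at 2.07, 0 and 2.48 CPM in DMSO 24 h, 7.89, 9.23 and 3.65 CPM in Molidustat 24 h, 4.07, 1.06 and 10.0 CPM in DMSO 48 h and 0.674, 4.29 and 8.08 CPM in Molidustat 48 h. The treated libraries lay above the controls at 24 h and overlapped with them at 48 h. Neither difference was called, with log2 fold changes of 2.10 ± 1.07 and -0.31 ± 1.01 (standard error; edgeR adjusted p = 0.979 and 0.936). The 48 h sign of THPO turned without DMSO 48 h replicate 3 or Molidustat 48 h replicate 1 (log2 fold changes of 0.60 and 0.18), and it was -0.70 without DMSO 48 h replicate 2. CHRD and an unnamed gene lie on the opposite strand at this locus, with 80 counts in all libraries together against 322 for THPO, and the strand setting of the counting was not stated.

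**Figure D1:**
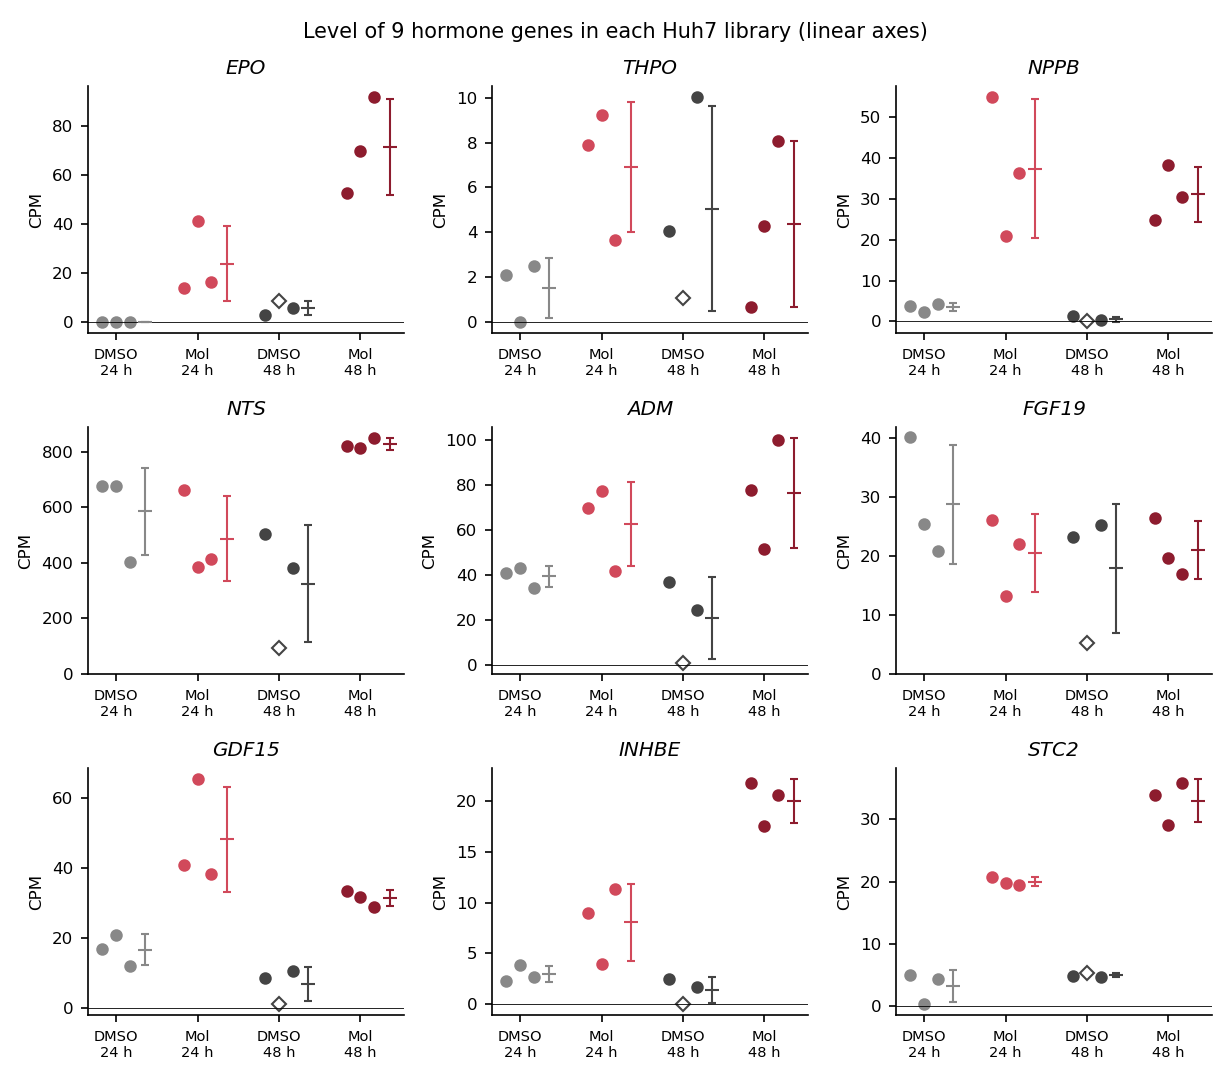
Level in CPM (linear axes) of the 9 hormone genes that could be tested, in each library of the 4 groups, with the mean and SD (n = 3) beside each group and an open diamond for DMSO 48 h replicate 2. EPO, NPPB, GDF15, INHBE and STC2 were higher in every Molidustat library than in any DMSO library of the same time, whereas the FGF19 groups overlapped at both times.

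NPPB (ENSG00000120937; chromosome 1, 11857464 to 11858945, minus strand) encodes B-type natriuretic peptide, a hormone of the heart that promotes salt excretion and relaxes vessels. Its DMSO 24 h libraries held 3.90, 2.31 and 4.34 CPM and its Molidustat 24 h libraries 54.9, 20.9 and 36.3 CPM. In DMSO 48 h it stood at 1.22, 0 and 0.413 CPM (9, 0 and 4 counts), against 24.7, 38.2 and 30.4 CPM in Molidustat 48 h. Every treated library was above every control at both times, and the treated levels of the 2 times overlapped. NPPB was called higher at 24 h (log2 fold change 3.36, adjusted p = 0.00775) and more so at 48 h (edgeR log2 fold change 5.39 ± 0.64 and adjusted p = 0.000941). The larger value at 48 h went with a lower control: NPPB in DMSO was 2.29 log2 units lower at 48 h than at 24 h, with no overlap, which was not called (unadjusted p = 0.00235, adjusted p = 0.541). The difference between the 2 responses was 2.03 log2 units (standard error 0.78) and was not called either (adjusted p = 0.728). At 24 h the NPPB call was lost without DMSO 24 h replicate 1, DMSO 24 h replicate 2 or Molidustat 24 h replicate 1 (adjusted p = 0.0690, 0.0732 and 0.0555), and at 48 h it held in all 12 fits that left out 1 library (log2 fold change 5.24 without DMSO 48 h replicate 2) and was lost with the 2 groups fitted alone (adjusted p = 0.0559 by edgeR).

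ADM (ENSG00000148926; chromosome 11, 10305073 to 10307397, plus strand) encodes adrenomedullin, a vasodilator peptide. In DMSO 24 h the levels were 40.9, 43.1 and 34.1 CPM, and in Molidustat 24 h 69.6, 77.1 and 41.7 CPM, so that 1 treated library lay within the controls. At 48 h the DMSO libraries held 37.0, 1.06 and 24.5 CPM of ADM and the Molidustat libraries 77.5, 51.5 and 99.97 CPM, without overlap. The middle DMSO value rests on 1 count in DMSO 48 h replicate 2. By edgeR, ADM was not called at 24 h (log2 fold change 0.67, adjusted p = 0.999) or at 48 h (1.76, adjusted p = 0.218), nor at 48 h without that library (1.30, adjusted p = 0.209). It was called at 48 h by limma-voom (1.53, adjusted p = 0.0115) and by edgeR without a filter on low counts (1.74, adjusted p = 0.00299).

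NTS (ENSG00000133636; chromosome 12, 85874295 to 85882992, plus strand) encodes neurotensin, a peptide of gut and brain. Its counts were ample, so that depth limited it least of the 10 genes. The DMSO 24 h libraries held 676, 675 and 405 CPM and the Molidustat 24 h libraries 661, 384 and 415 CPM, which overlapped. In DMSO 48 h the NTS levels were 502, 92.6 and 380 CPM, and in Molidustat 48 h 821, 812 and 851 CPM. The treated 48 h libraries were the most alike of any NTS group (828 ± 20.4 CPM, SD, n = 3) and lay above all other libraries. By edgeR this difference was not called (log2 fold change 1.34, or 0.89 without DMSO 48 h replicate 2; adjusted p = 0.238 and 0.387), whereas limma-voom called NTS (1.09, adjusted p = 0.0407).

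FGF19 (ENSG00000162344; chromosome 11, 69698238 to 69704022, minus strand) encodes a hormone of the ileum that restrains bile acid synthesis in the liver. It ranged from 20.9 to 40.2 CPM in DMSO 24 h, from 13.2 to 26.2 CPM in Molidustat 24 h and from 16.9 to 26.5 CPM in Molidustat 48 h. DMSO 48 h held 23.2, 5.32 and 25.3 CPM. The groups overlapped in every comparison, and the log2 fold changes of FGF19 were -0.50 ± 0.48 at 24 h and 0.15 ± 0.48 at 48 h (standard error; edgeR adjusted p = 0.999 and 0.935). Without DMSO 48 h replicate 2 the 48 h value was -0.22.

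FGF21 (ENSG00000105550; chromosome 19, 48755524 to 48758333, plus strand) encodes a liver hormone of fasting and metabolic stress. It was at the detection limit: the only reads were 3 counts in DMSO 48 h replicate 1 and 1 count in Molidustat 48 h replicate 3. The 6 libraries of 24 h had none, which allows up to 0.254 CPM in DMSO and 0.185 CPM in Molidustat. FGF21 did not pass the filter on low counts and no fold is given. Exact two-sided permutation tests of its CPM, which cannot go below p = 0.1 with 3 libraries against 3, gave p = 1 at each time.

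GDF15 (ENSG00000130513; chromosome 19, 18374731 to 18389176, plus strand) encodes a stress hormone that lowers appetite through the hindbrain. Its levels were 16.8, 20.8 and 11.98 CPM in DMSO 24 h and 40.9, 65.3 and 38.1 CPM in Molidustat 24 h. In DMSO 48 h it held 8.54, 1.06 and 10.5 CPM, and in Molidustat 48 h 33.3, 31.7 and 28.8 CPM. Treated and control libraries were separate at both times. By edgeR GDF15 was not called at 24 h (log2 fold change 1.55 ± 0.47, standard error; adjusted p = 0.376) or at 48 h (2.03 ± 0.48, adjusted p = 0.129). With DMSO 48 h replicate 2 left out it was called at 24 h (adjusted p = 0.0319) and still not at 48 h (adjusted p = 0.0819). DESeq2 called it at both times (adjusted p = 0.0432 and 0.00249).

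INHBE (ENSG00000139269; chromosome 12, 57452323 to 57459280, plus strand) encodes the βE subunit of the activins, a product of liver cells. DMSO 24 h held 2.30, 3.85 and 2.69 CPM and Molidustat 24 h 8.96, 3.88 and 11.3 CPM, so that the lowest treated library lay just above the highest control. DMSO 48 h held 2.44, 0 and 1.65 CPM of INHBE and Molidustat 48 h 21.8, 17.6 and 20.7 CPM. At 48 h the treated libraries were close to each other and far above the controls. INHBE was called higher at 48 h by a narrow margin (log2 fold change 3.55 ± 0.70, standard error; 11.7-fold; edgeR adjusted p = 0.0499) and not at 24 h (1.45 ± 0.65, adjusted p = 0.911). The 48 h call held in 2 of the 12 fits that left out 1 library, with adjusted p from 0.0352 to 0.216, while the log2 fold change stayed between 3.27 and 3.98.

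STC2 (ENSG00000113739; chromosome 5, 173314723 to 173328447, minus strand) encodes stanniocalcin 2, which inhibits a protease of the insulin-like growth factor system. It stood at 5.05, 0.385 and 4.34 CPM in DMSO 24 h and at 20.8, 19.8 and 19.4 CPM in Molidustat 24 h. At 48 h the STC2 levels were 4.88, 5.32 and 4.65 CPM in DMSO and 33.9, 29.2 and 35.9 CPM in Molidustat. Among the genes described here, it had the least spread within treated groups at 24 h, and DMSO 48 h replicate 2 did not stand apart in it. Even so, edgeR did not call STC2 on all 12 libraries, with log2 fold changes of 2.54 ± 0.55 and 2.75 ± 0.56 (standard error; adjusted p = 0.0955 and 0.0637). Without DMSO 48 h replicate 2, which entered the estimate of the spread at both times, it was called at both times (adjusted p = 0.0221 and 0.0481). It was also called at 48 h without DMSO 24 h replicate 2 or DMSO 48 h replicate 1 (adjusted p = 0.00846 and 0.0492). DESeq2 called STC2 at both times as well (adjusted p = 0.000179 and 9.4e-06).

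**Figure D2:**
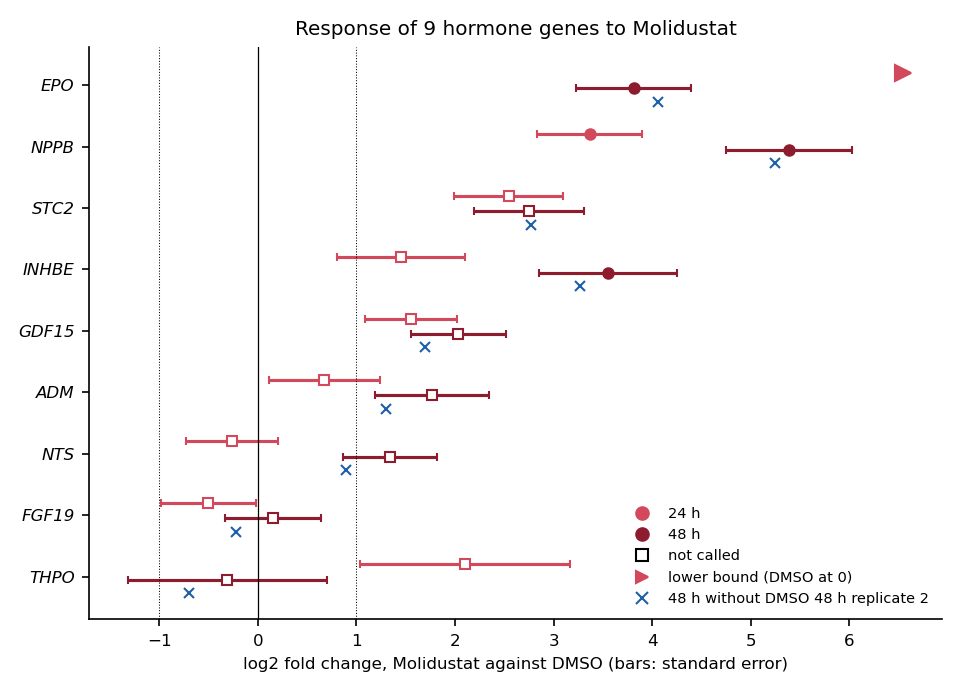
Log2 fold change of Molidustat against DMSO (x axis; bars, standard error) of 9 hormone genes at 24 h and 48 h, with filled circles for called genes, open squares for genes not called, a triangle for the lower bound of EPO at 24 h and crosses for the 48 h value without DMSO 48 h replicate 2. EPO and NPPB were called at both times and INHBE at 48 h, and leaving out that library moved FGF19 across 0.

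Counted over the 9 genes tested, 2 were called higher at 24 h (EPO and NPPB) and 3 at 48 h (EPO, NPPB and INHBE), while 0.231% and 0.21% of all 14274 genes were. None was called lower at either time (0% and 0.021% of all genes were), and none was lower at an unadjusted p under 0.05, at which 1.52% and 8.81% of all genes were. At that level 5 and 7 of the 9 were higher, against 3.73% and 4.53% of all genes. DESeq2 called 4 higher at 24 h and 5 at 48 h, beside 0.932% and 1.2% of all genes, and none lower, beside 0.0841% and 1.24%. Without DMSO 48 h replicate 2, edgeR called 4 higher at each time, beside 0.728% and 0.315% of all genes. At 48 h, limma-voom with sample quality weights called 7 higher (1.71% of all genes) and edgeR without a filter on low counts called 6 (0.542%). Treated libraries lay wholly above the controls in 6 of the 9 at 24 h and in 7 at 48 h, a pattern found in 7.26% and 9.96% of all genes tested. The median log2 fold change of the 9 was 1.55 at 24 h and 2.03 at 48 h, or 1.69 without DMSO 48 h replicate 2, beside 0.02 and 0.01 over all genes. These genes were picked as a group with results of the series known, so that the counts describe them and carry no test.

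**Figure D3:**
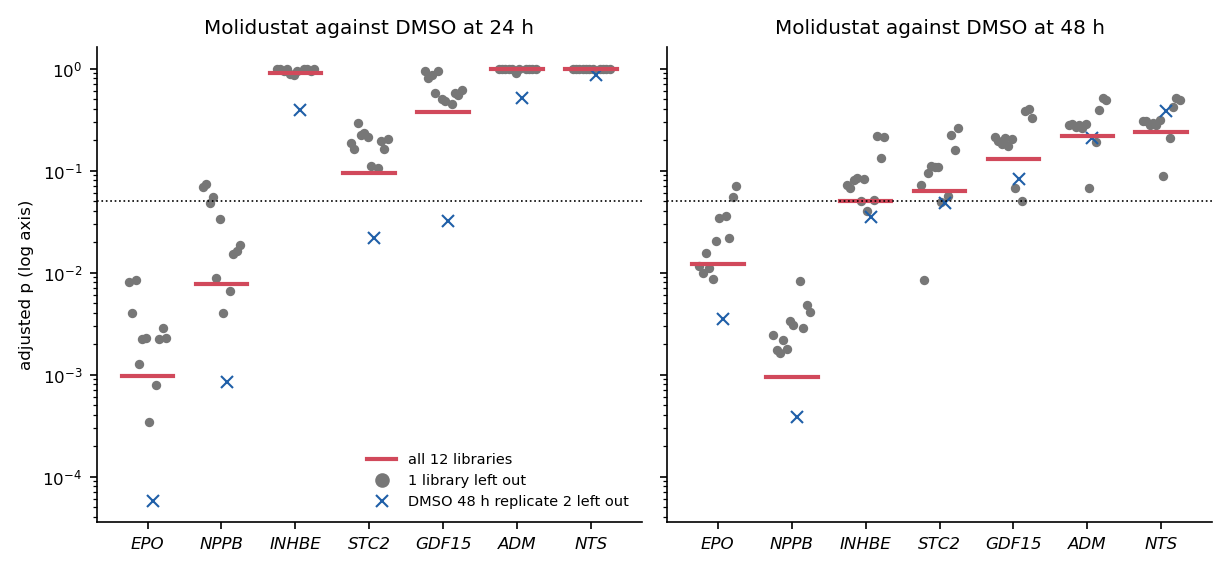
Adjusted p by edgeR (log axis) of 7 hormone genes with all 12 libraries (bars) and with each library left out in turn (points; crosses, DMSO 48 h replicate 2), at 24 h on the left and 48 h on the right; the dotted line is 0.05. EPO stayed under the line at 24 h and NPPB at 48 h in every fit, and STC2 crossed it at both times when DMSO 48 h replicate 2 was left out.

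The question of whether the response differed between the times was put to the data as the difference of the 2 fold changes. No gene of the 9 tested was called by edgeR (0% of all genes in either direction) or by DESeq2 (0.014% were called on the side of a larger and 0.042% on that of a smaller fold change at 48 h). At an unadjusted p under 0.05, EPO was on the side of a smaller fold change at 48 h (5.6% of all genes) and NPPB, NTS and INHBE on that of a larger (1.18%). Leaving out DMSO 48 h replicate 2 moved NTS from 1.61 to 1.15 log2 units, NPPB from 2.03 to 1.88 and INHBE from 2.10 to 1.80. EPO moved from -6.05 to -5.91. Without a filter on low counts, edgeR called EPO on the side of a smaller fold change, beside 1.11% of all genes. The value of EPO depends on its 0 counts in DMSO 24 h, a group that also enters its 24 h fold change. Between 24 h and 48 h in DMSO, no hormone gene was called by edgeR (0% of all genes were called higher and 0.00701% lower), and at an unadjusted p under 0.05 EPO was higher (6.76% of all genes) and NPPB and GDF15 were lower (1.38%). Leaving out DMSO 48 h replicate 2 moved GDF15 from -1.11 to -0.75 log2 units, NPPB from -2.29 to -2.14 and EPO from 7.63 to 7.48. DESeq2 called EPO higher in DMSO (0.224% of all genes) and none lower (0.056%), and edgeR without a filter called EPO as well (1.36%). In Molidustat none was called between the times by edgeR (0% of all genes in either direction) or by DESeq2 (0.049% higher and 0.035% lower), with EPO and INHBE higher at an unadjusted p under 0.05 (2.39% of all genes, and 2.19% lower).

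Across the 12 libraries, the hormone genes fell into patterns that were partly shared. Pearson's r of log2 CPM is given as a description, since all genes share the same libraries, treatments and depths. EPO was most like STC2 among the others (r = 0.87, and 0.88 without DMSO 48 h replicate 2), and NPPB was most like INHBE and GDF15 (0.89 and 0.87; 0.84 and 0.86 without it). The likeness of NTS to ADM fell from 0.91 to 0.57 when that library was left out, and that of ADM to FGF19 went from 0.69 to -0.42. In all genes tested, the 3 most like EPO were MXI1, MIR210HG and PHKA2 (r = 0.956, 0.949 and 0.944), and those most like STC2 were PFKFB4, P4HA2 and NDRG1 (0.975, 0.966 and 0.965), each at 0.94 or above without that library. NPPB was nearest to CD24, CXCL6 and RBMS2 (0.960, 0.958 and 0.945), and INHBE to TMEM37, ENSG00000272679 and GYS1 (0.970, 0.963 and 0.942). For GDF15 the nearest were ENSG00000285043, ALDOA and DUSP1 (0.972, 0.972 and 0.956), and for THPO they were CPQ, MUC3A and ATP13A2 (0.951, 0.908 and 0.883). The genes nearest to ADM (MACROH2A2, TMEM179B and KHNYN) and to NTS (ACADVL, MAGEF1 and PRDX4) reached 0.957 to 0.975 on 12 libraries and only 0.790 to 0.863 on 11, and FGF19 with UFD1, ENSG00000213683 and GALC went from between 0.953 and 0.981 to between 0.837 and 0.937.

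**Figure D4:**
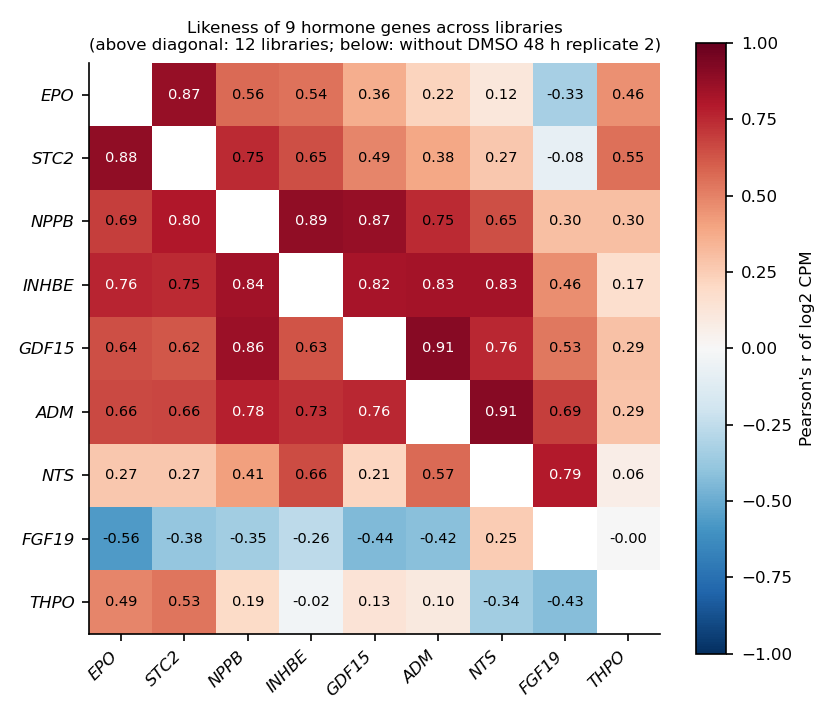
Pearson's r of log2 CPM between pairs of 9 hormone genes (color scale from -1 to 1), above the diagonal over 12 libraries and below it over 11, without DMSO 48 h replicate 2. EPO and STC2 stayed alike (0.87 and 0.88), whereas FGF19 went from r of 0.30 to 0.79 with NPPB, INHBE, GDF15, ADM and NTS to between -0.44 and 0.25.

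The receptors of these hormones were followed as a list of 25 genes, of which 15 passed the filter. Receptors or partners of natriuretic peptides (NPR1), neurotensin (NTSR1), adrenomedullin (CALCRL) and GDF15 (GFRAL and RET) did not pass it. GFRAL and RET had no count in any library. Among other listed receptors or partners of the natriuretic peptide, neurotensin and adrenomedullin families, NPR2, SORT1 and RAMP2 passed. Their group means were 5.99 to 10.7, 19.7 to 38.8 and 4.15 to 7.69 CPM. None of the 15 was called at 24 h or 48 h by edgeR or DESeq2. At an unadjusted p under 0.05, 1 was higher at 24 h (3.73% of all genes) and 2 were lower at 48 h (8.81%). The median log2 fold changes of the 15 were -0.09 and -0.04, near those of all genes. Among the 4 with the largest changes at 48 h were ACVR2A and ACVR2B, receptors of activins (log2 fold changes of -1.62 and -1.17), and RAMP1, a partner of calcitonin-family receptors (-1.23), none of them called. These values were -0.19, 0.29 and -1.68 without DMSO 48 h replicate 2, which held the highest DMSO 48 h level of ACVR2A and ACVR2B. EPOR, the erythropoietin receptor, named here outside the rule for naming genes, had log2 fold changes of -0.09 and 0.76 (edgeR adjusted p = 0.999 and 0.665).

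Of 12 genes for enzymes that process or clear peptide hormones, 7 were tested and none was called by edgeR at either time. At an unadjusted p under 0.05, 2 were higher at 24 h (3.73% of all genes) and none passed in either direction at 48 h. DESeq2 called 1 higher at 24 h, as did edgeR without DMSO 48 h replicate 2, beside 0.932% and 0.728% of all genes. In both it was PCSK6, another proprotein convertase, named here after its values were seen (log2 fold change 1.75 on all libraries; adjusted p = 0.0214 by DESeq2 and 0.0234 by edgeR without that library). The furthest from 0 at 48 h were PCSK5 and PCSK7, proprotein convertases (-1.22 and -1.08), CPE, carboxypeptidase E (1.08), and IDE, which degrades insulin and other small peptides (-0.78). PCSK5 and PCSK7 stood at -0.88 and -0.37, CPE at 1.18 and IDE at -0.92 without DMSO 48 h replicate 2. The relatives of the 10 hormones gave 8 tested genes of 16, none called by edgeR at either time on all 12 libraries. At each time 1 was higher at an unadjusted p under 0.05 (3.73% and 4.53% of all genes). DESeq2 called 1 higher at each time (0.932% and 1.2%). INHA, the inhibin α subunit, which pairs with activin β subunits, was found in the Molidustat libraries at 11.8, 5.95 and 3.27 CPM at 24 h and at 8.99, 7.72 and 6.01 CPM at 48 h. In DMSO it had 3 counts in a single 24 h library and none at 48 h. Its level at 48 h was thus at least 45.4-fold higher than the limit of 3 counts over the DMSO group, and at 24 h the ratio was 24.0 (95% counting interval 7.97 to 118). Neither was called on all 12 libraries (edgeR adjusted p = 0.233 at 24 h and 0.0610 at 48 h), and without DMSO 48 h replicate 2 INHA was the 1 relative called, at 48 h (adjusted p = 0.0352). INHA passed the filter on low counts through Molidustat libraries alone and could come out only higher, so that call is no test of direction. CALCB, a calcitonin gene-related peptide, INHBB, another activin subunit, and GDF11 had log2 fold changes of 2.44, 1.31 and -1.05 at 48 h, and of 2.58, 1.49 and -0.04 without DMSO 48 h replicate 2.

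Of 20 other secreted liver proteins, 12 were tested, and edgeR called none at 24 h and 1, which was higher, at 48 h. At an unadjusted p under 0.05, 2 were higher at 24 h and 4 at 48 h (3.73% and 4.53% of all genes), with none lower (1.52% and 8.81%). DESeq2 called 1 and 3 higher, beside 0.932% and 1.2% of all genes. EdgeR without DMSO 48 h replicate 2 called 2 and 1, beside 0.728% and 0.315%. IGFBP1, which binds insulin-like growth factors, had no count in DMSO 24 h and 1 count in DMSO 48 h. Its Molidustat libraries held 0, 9.35 and 4.23 CPM at 24 h and 24.7, 16.3 and 19.9 CPM at 48 h. The 48 h change of IGFBP1 was called (edgeR adjusted p = 0.0486), with a ratio of 378 (95% counting interval 67.2 to 14974). The 24 h change was not called (edgeR adjusted p = 0.156). Its Molidustat 24 h mean was 17.8-fold the limit of 3 counts over the DMSO group, which is no least fold, since 1 of these libraries held no count. IGFBP1 passed the filter on low counts through Molidustat libraries alone and could come out only higher, so its call is no test of direction. The median of the 12 was 0.54 at 24 h and 0.94 at 48 h.

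As a reference for the drug, 10 genes commonly raised by prolyl hydroxylase inhibitors were followed, of which 9 were tested and CA9 was not. Among those called at 24 h were PDK1, which holds back pyruvate dehydrogenase (log2 fold change 3.60), BNIP3, a mitochondrial receptor for mitophagy (2.81), and the glycolytic enzymes PGK1 and LDHA (2.80 and 2.48). BNIP3 and PGK1 were also called at 48 h. The medians of the 9 were 2.52 and 1.86, beside 1.55 and 2.03 for the hormone genes. The order at 48 h was the other way without DMSO 48 h replicate 2, with 2.37 for the reference genes and 1.69 for the hormone genes, and the lists were not tested against each other. Between 24 h and 48 h in DMSO, all 9 reference genes had a log2 fold change above 0 (median 0.71), while 51.6% of all genes did. None of the 9 was called by edgeR or DESeq2, and 1 was higher at an unadjusted p under 0.05 (6.76% of all genes). Their summed level in DMSO was between 501 and 565 CPM at 24 h and between 660 and 886 CPM at 48 h, over the same interval in which EPO reads appeared. The part of these genes' shift in the EPO result was not tested. Of 13 integrated stress response genes, DDIT4, an inhibitor of mTORC1 that hypoxia also raises, was the only one called at 24 h or 48 h (3.10 and 3.24, edgeR adjusted p = 0.0181 and 0.0144). Of all genes, 0.231% and 0.21% were called higher. At an unadjusted p under 0.05, 1 was higher and 1 lower at 24 h (3.73% and 1.52% of all genes). At 48 h, 2 were higher and 0 lower (4.53% and 8.81%). Treated libraries lay wholly above the controls in 1 gene at 24 h and 3 at 48 h (7.26% and 9.96% of all genes), and wholly below in 2 and 0 (5.02% and 8.02%). The medians of the list were -0.17 and 0.04.

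The cell type was checked against marker genes. All 10 hepatocyte markers were tested and present in every library, with AFP at the highest CPM. Their summed level was 13009 to 15986 CPM in DMSO 24 h, 19473 to 23628 CPM in Molidustat 24 h, 9229 to 17433 CPM in DMSO 48 h and 25281 to 30396 CPM in Molidustat 48 h. At 24 h 4 and at 48 h 7 of the 10 lay wholly higher in Molidustat, a pattern found in 7.26% and 9.96% of all genes tested. The median change at 48 h was 1.137 log2 units, or 0.74 without DMSO 48 h replicate 2. EdgeR called none of the 10 at either time on 12 libraries. Without that library it called 2 at each time, all higher, beside 0.728% and 0.315% of all genes. At an unadjusted p under 0.05, 3 were higher at 24 h (3.73% of all genes). At 48 h, 7 were higher and 1 lower (4.53% and 8.81%). DESeq2 called 1 higher at 24 h and 4 at 48 h, beside 0.932% and 1.2%. Of the 10, 9 had a log2 fold change above 0 at 24 h and 8 at 48 h, with HNF4A and APOB below 0 at 48 h. The part of this shift in the results of EPO, NPPB and INHBE was not tested. Markers of other cells were low but not absent. The 5 fibroblast markers summed to 0.620 to 5.01 CPM in DMSO 24 h and 2.87 to 5.58 CPM in Molidustat 24 h, which overlapped. At 48 h they summed to 2.13 to 6.20 CPM in DMSO and 7.72 to 12.6 CPM in Molidustat, which did not. COL1A2 had the highest mean of them except in DMSO 24 h, where PDGFRB did (1.91 against 0.427 CPM). The 4 leukocyte markers summed to 2.53 to 5.37 CPM and 4.81 to 8.96 CPM at 24 h. At 48 h they summed to 2.13 to 5.37 CPM and 9.66 to 14.7 CPM, again separate at 48 h alone. CD14 had the highest mean of them in Molidustat 48 h (8.92 CPM, against 2.62 CPM for CD68), and CD68 in the other groups. PTPRC was absent from 10 of the 12 libraries. None of the 3 fibroblast or 2 leukocyte markers tested was called by edgeR or DESeq2. In DMSO the fibroblast and leukocyte sums overlapped with the levels of THPO, INHBE and STC2. These sums also overlapped with EPO in DMSO 48 h (2.58 to 8.52 CPM) and with NPPB in DMSO 24 h (2.31 to 4.34 CPM). In Molidustat 48 h they reached 12.6 and 14.7 CPM, above the highest DMSO level of these genes (10.0 CPM, THPO). The part of these markers in the hormone results was not tested. The 4 endothelial markers, with PECAM1 highest, summed to at most 6.45 CPM. The erythroid markers HBB, HBA1 and HBG1 had no count in any library.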

How the data were processed

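RNA was taken from Huh7 cells in 4 groups of 3 libraries each. Per the paper's methods and the processing notes, the authors made 3′ libraries (QIAseq UPX 3′ kit), sequenced them on an Illumina instrument, trimmed reads with cutadapt 1.9.1, aligned them with STAR 2.7.9a to GRCh38 and counted them with HTSeq 0.11.2. As deposited, each file gives raw read counts for every gene, in whole numbers that were not normalized. Annotation release, strand setting and use of molecular identifiers were not given in the sources used here. Samples were grouped by their titles, and 0 columns were left out. The 5 summary lines of each file that name no gene stayed out of library sizes and tests; reads on no gene made up 17.1 to 50.4% of those listed. Replicates of a group differed by more than sampling noise.

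Counts were analysed with edgeR 4.0.16 in R 4.3.3: filterByExpr (minimum count 10, minimum total 15), TMM, and the quasi-likelihood test, fitted once to the 12 libraries, with Benjamini-Hochberg adjustment over 14274 genes. Calls needed an adjusted p under 0.05 together with a change of more than 1 log2 unit. The F statistic and the fold change gave the standard error. Against a group at 0, a fold was set against 3 counts over the group. Alternatives were DESeq2 1.42.0, limma-voom with quality weights (limma 3.58.1), RLE factors or total counts, other filters, the 2 groups compared fitted alone, a replicate block, thinning, adjusted p alone, and each library left out in turn. The scripts were tested on simulated data. Gene names and coordinates came from GENCODE release 44, and figures were drawn with matplotlib 3.10.9.

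Members and gene lists were chosen with earlier results of these data known. Named were all 10 members, every called gene of each list or, in lists without one, the 4 genes with the largest change at 48 h, and the 3 genes most like each member that passed the filter, by Pearson's r of log2 CPM (prior count 2). Values of a few genes that this rule names are not reported here. No test of whole lists was run.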

Additional observations from a re-analysis of the deposited data

How the results depend on the processing

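At 24 h, 2 members (EPO and NPPB) were called higher in the main analysis, 4 by DESeq2 (with GDF15 and STC2), 3 without a filter on low counts (with STC2), 0 with at least 10 counts required in every library, a filter under which only NTS could be tested, and 1 to 4 with each library left out. At 48 h, 3 were called higher in the main analysis, 5 by DESeq2 (with GDF15 and STC2) and 7 by limma-voom with quality weights (with NTS, ADM, GDF15 and STC2). Without a filter on low counts 6 were called (with ADM, GDF15 and STC2), and with total counts in place of TMM 4 (with STC2). With at least 10 counts in every library 0 were called, with the 2 groups fitted alone 0, and with each library left out 1 to 4. For the difference of the response, EPO was the 1 member called lower without a filter, against 0. In DMSO between 24 h and 48 h, EPO was the 1 member called higher by DESeq2, with total counts and without a filter, against 0, and 0 to 1 were called with each library left out. Other causes were not tested. Over all genes, the calls of higher level at 24 h were 33 of 14274 in the main analysis, 104 of 28430 without a filter and 15 of 7555 with at least 10 counts in every library. At 48 h they were 30, 154 and 14 of the same totals, and 7 of 13091 with the 2 groups fitted alone. Of 14274 genes at 48 h, they were 33 with total counts, 244 by limma-voom and 172 by DESeq2. Of 14274 genes at 24 h, they were 35 with total counts, 64 by limma-voom and 133 by DESeq2. With the 2 groups fitted alone, 57 of 12936 genes were called higher at 24 h, and EPO and NPPB stayed called.

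No call of a member turned direction. By limma-voom, the sign turned for FGF19 at 48 h (-0.26) and between the times in Molidustat (-0.040) and for STC2 in the difference of the response (-0.072), all in log2 units and none called. With each library left out, log2 fold changes that were not called passed 0 as follows. THPO at 48 h ranged from -1.19 to 0.60 (positive without DMSO 48 h replicate 3 or Molidustat 48 h replicate 1). FGF19 at 48 h ranged from -0.22 to 0.43 (negative without DMSO 48 h replicate 2 or Molidustat 48 h replicate 1), and between the times in Molidustat from -0.22 to 0.23 (negative without Molidustat 24 h replicate 2 or Molidustat 48 h replicate 1). STC2 in the difference of the response ranged from -0.21 to 0.66 (negative without DMSO 24 h replicate 1 or replicate 3), and NPPB between the times in Molidustat from -0.57 to 0.092 (positive without Molidustat 24 h replicate 1). Of the other values of single genes, 842 kept direction and side of the threshold, 19 lost a call and 23 gained one.

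Replicate numbers were not found to pair the libraries: deviations of same-numbered DMSO and Molidustat libraries correlated at -0.03 to 0.12 at 24 h and at -0.05 to 0.05 at 48 h. A replicate block left 2 members called higher at each time, with INHBE lost at 48 h (adjusted p = 0.0966 by edgeR). With that block, 30 of all 14274 genes were called higher at 24 h. FGF21 was fitted only without a filter, on 4 counts in all, and gave no usable value there or with a library left out as well. Depth limited EPO, THPO, INHBE and NPPB in DMSO, with counts under 20 in most DMSO libraries.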

Other observations

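Genes that act upstream of the hormones were followed as a further list. Of 15 regulators, which include the HIF subunits, the prolyl hydroxylases and nuclear receptors of the liver, all were tested and none was called by edgeR at 24 h or 48 h. At an unadjusted p under 0.05, 2 were higher and 1 lower at 24 h, and 2 were higher and 5 lower at 48 h, while 3.73% of all genes were higher and 1.52% lower at 24 h, and 4.53% and 8.81% at 48 h. DESeq2 called 1 higher at each time, EGLN1 at 24 h and NR0B2 at 48 h (adjusted p = 0.000848 and 0.00378). EGLN1, a prolyl hydroxylase that the drug inhibits, named here after its values were seen, stood 1.55 log2 units higher at 24 h (edgeR adjusted p = 0.0789, not called) and was also called there by edgeR without DMSO 48 h replicate 2 (adjusted p = 0.0130). The median log2 fold change of the 15 was -0.17 at 24 h and -0.37 at 48 h, or -0.09 at 48 h without DMSO 48 h replicate 2, beside 0.02 and 0.01 over all genes. NR0B2, a nuclear receptor without a DNA-binding domain that restrains bile acid synthesis, held 2.53, 0.385 and 3.51 CPM in DMSO 24 h and 9.68, 9.83 and 12.3 CPM in Molidustat 24 h. In DMSO 48 h NR0B2 held 0.407, 0 and 3.41 CPM, and in Molidustat 48 h 18.4, 17.2 and 15.8 CPM, without overlap at either time and without a call (edgeR adjusted p = 0.681 and 0.153). Without DMSO 48 h replicate 2, NR0B2 had a 48 h value of 3.11 in place of 3.39 log2 units.

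HNF4A, a master regulator of liver genes, VHL and EPAS1 had the next largest changes at 48 h, with log2 fold changes of -1.88, -1.60 and -1.49, none called. These were -0.05, -0.57 and -0.17 without DMSO 48 h replicate 2. In DMSO 48 h replicate 2 their levels were 1237, 698 and 919 CPM, against at most 209, 167 and 186 CPM in the other 2 libraries of that group. HNF4A also ranged from 111 to 768 CPM among the DMSO 24 h libraries.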
